A study of Homo sapiens with 22 samples.

Results

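Transcripts of 7 genes of the SGK and FOXO axis were measured by RNA-seq in MDA-MB-231 cells: the kinases SGK1 and SGK3, their substrates NEDD4L and NDRG1, and the transcription factors FOXO1, FOXO3 and FOXO4. The 7 genes were picked by name, with earlier results of these data known, from the 20668 gene symbols of each RNA-seq file. All 7 passed the filter on low values that left 12713 genes for testing. MDA-MB-231 is an established triple-negative breast cancer (TNBC) line. Before treatment all cells were held for 3 days in medium without phenol red, with 5% charcoal-stripped serum, which removes steroids. The 10 RNA samples fell into 5 groups of 2 biological replicates: vehicle, 100 nM Dex for 2 h, 100 nM Dex for 4 h, 10 μM CpdA for 2 h and 10 μM CpdA for 4 h. Dexamethasone (Dex) is an agonist of the glucocorticoid receptor (GR), Compound A (CpdA) modulates it selectively, and their doses differed. No time point was labelled for vehicle, while the column headers named vehicle replicate 1 for 2 h and vehicle replicate 2 for 4 h. Both served as the reference throughout, so in vehicle a difference between times and one between replicates cannot be told apart.

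SGK kinases are relatives of AKT that are switched on by phosphorylation downstream of PI3K, through PDPK1 and the mTORC2 complex. SGK1 is known as a gene that glucocorticoids and mineralocorticoids induce, and in kidney epithelium its kinase protects the epithelial sodium channel by phosphorylating NEDD4L, the ubiquitin ligase that would remove the channel from the membrane. SGK and AKT kinases also phosphorylate FOXO factors, which then leave the nucleus and no longer transcribe genes of cell cycle arrest, cell death and metabolism. RNA-seq reads transcript levels, so phosphorylation, location and activity of these proteins were not measured.

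Values are RPKM, the reads on a gene divided by its length and by the library's mapped reads, so levels may be compared between genes as well as between samples. Fold changes were fitted with limma on log2(RPKM + 0.1), a scale on which changes of the least expressed genes are understated. A change was called at an adjusted p-value under 0.05, Benjamini-Hochberg over all 12713 genes. Every adjusted p below is limma's over those 12713 genes, and it rests on the spread between 2 samples a group, which is too few for a permutation test to reach 0.05. All 4 comparisons against vehicle used the same 2 vehicle samples. Relative sequencing depth ranged from 0.998 to 1.21, with both vehicle samples the shallowest. The line's markers stood as labelled: VIM ranged from 1267 to 1464 RPKM, whereas ESR1 and PGR stayed at or below 0.00484 RPKM. ERBB2, at 15.9 to 21.6 RPKM, and the luminal keratin KRT19, at 257 to 371 RPKM, were not at 0. Of 6 luminal markers 3 passed the filter (KRT19, EPCAM and GATA3) and 3 did not (CDH1, TFF1 and FOXA1). The summed RPKM of the 6 luminal markers was 344 and 366 in vehicle, 321 and 332 at 2 h and 271 and 293 at 4 h of Dex, and 379 and 386 at 2 h and 328 and 340 at 4 h of CpdA. KRT19 made up most of that sum, whereas GATA3 was highest at 4 h of Dex, with a mean of 6.35 ± 0.345 RPKM (SD, n = 2) beside 5.29 ± 0.153 in vehicle, and the part of these markers in the results was not tested. In bulk RNA, fewer cells of a type and less RNA per cell cannot be told apart. Known glucocorticoid targets responded to Dex, with TSC22D3 at 8.22 and 9.79 RPKM in vehicle and at 302 and 304 RPKM after 2 h. Over all genes, 571 rose and 740 fell at 2 h of Dex, and 1177 rose and 2310 fell at 4 h. With CpdA, 240 rose and 546 fell at 2 h, and 860 rose and 1749 fell at 4 h. That balance depended on scaling, since after scaling each library to the same median 1600 rose and 1604 fell at 4 h of Dex, 295 rose and 367 fell at 2 h of CpdA, and 1386 rose and 1098 fell at 4 h of CpdA. Quantile normalization gave 1426 up and 1756 down, 293 up and 448 down, and 1203 up and 1370 down, respectively.

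In vehicle, NDRG1 was the most abundant of the 7 transcripts with a mean of 123 RPKM, followed by NEDD4L at 22.7, SGK1 at 15.5, FOXO3 at 4.33, FOXO4 at 3.55, SGK3 at 1.86 and FOXO1 at 0.779 RPKM. No neighbours in this order overlapped between the 2 vehicle samples. SGK1 stood above NEDD4L at both times of Dex and at 2 h of CpdA, and below it again at 4 h of CpdA. FOXO1 stood above SGK3 at both times of Dex. With the readthrough gene described below added to SGK3, the sum was 2.21 and 2.25 RPKM at 2 h of Dex, above FOXO1 at 1.94 and 1.93. At 4 h of Dex FOXO1 stood above that sum as well.

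Dex changed 5 of the 7 transcripts at 2 h, with SGK1, FOXO1, FOXO3 and NDRG1 upregulated and NEDD4L downregulated, where 10.3% of all genes tested were called. At 4 h of Dex, SGK1, FOXO1 and FOXO3 were upregulated and NEDD4L was downregulated, 4 of 7 where 27.4% of all genes were called. CpdA upregulated SGK1 alone at 2 h, 1 of 7 where 6.18% of all genes were called. At 4 h of CpdA, FOXO1 was upregulated and NEDD4L downregulated, 2 of 7 where 20.5% of all genes were called, and both of those calls were lost in some of the alternative analyses described with each gene.

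**Figure D1:**
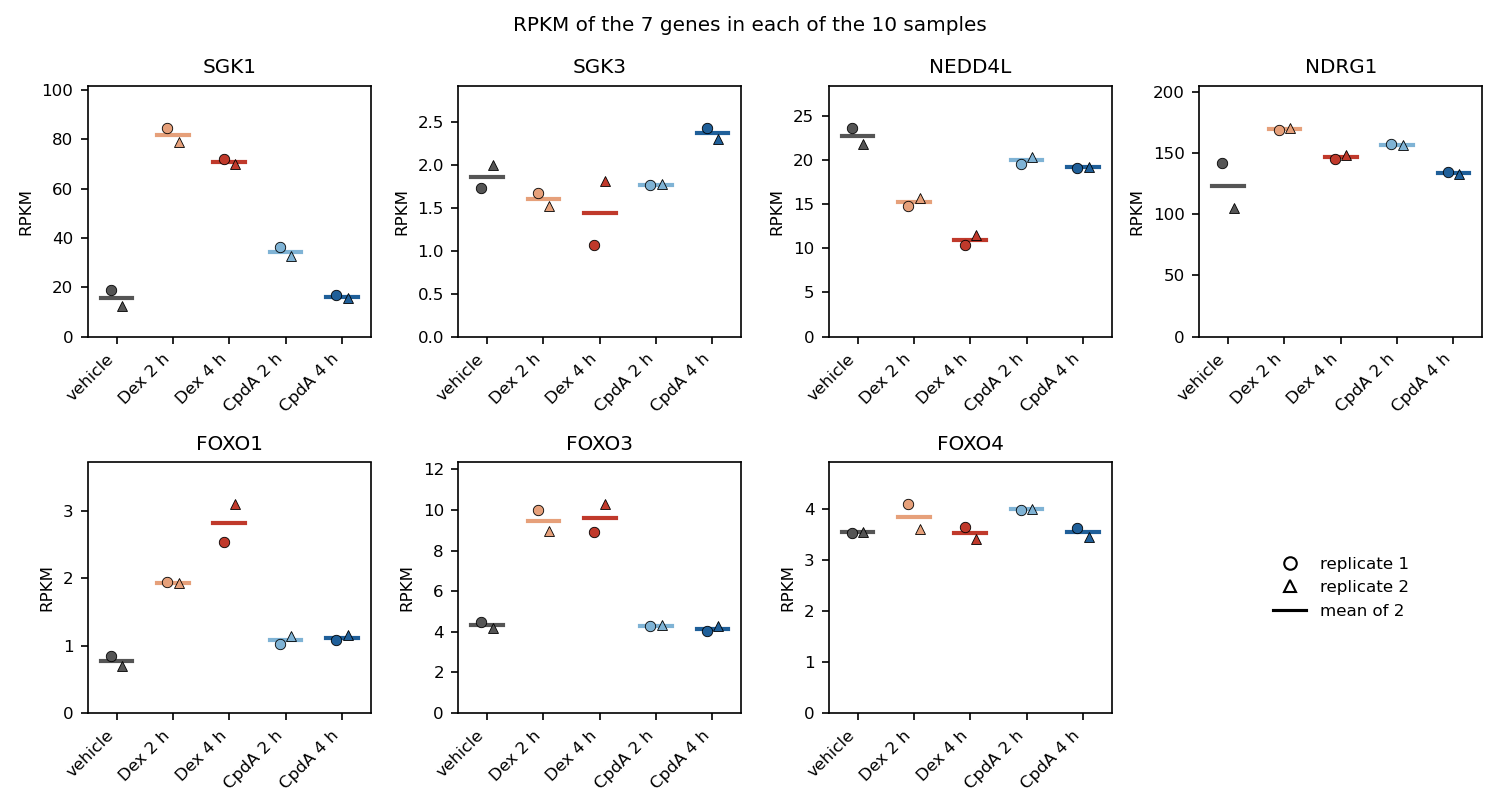
RPKM (vertical axes, linear from 0) of each of the 7 genes in the 10 samples, by group; circles are replicate 1, triangles replicate 2 and bars the mean of 2. SGK1 stands at 69.8 to 84.6 RPKM in the 4 Dex samples and 12.3 to 18.7 in vehicle, NEDD4L steps down from vehicle to 2 h and 4 h of Dex, and the 2 vehicle samples lie farthest apart for NDRG1, at 142 and 105 RPKM.

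SGK1 encodes the steroid-induced kinase and lies on the minus strand of chromosome 6 (GRCh37, chr6:134490386-134639250). It measured 18.7 and 12.3 RPKM in the vehicle replicates 1 and 2. With Dex it measured 84.6 and 78.9 RPKM at 2 h and 71.8 and 69.8 RPKM at 4 h. With CpdA it measured 36.2 and 32.8 RPKM at 2 h and 17.0 and 15.5 RPKM at 4 h. Every Dex sample and both CpdA 2 h samples stood above both vehicle samples, whereas the CpdA 4 h samples lay between them.

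The log2 fold change of SGK1 against vehicle was 2.42 (SE 0.156, 5.36-fold, adjusted p = 9.4e-06) at 2 h of Dex and 2.22 (SE 0.156, 4.64-fold, adjusted p = 8.1e-06) at 4 h. Of the 12713 genes, 28 rose more than SGK1 at 2 h of Dex and 74 at 4 h. CpdA raised it by 1.18 (SE 0.156, 2.26-fold, adjusted p = 0.0029) at 2 h, a rise exceeded by 57 genes. These 3 calls held in all 20 alternative analyses. At 4 h of CpdA the log2 fold change was 0.10 (SE 0.156, adjusted p = 0.72). That value rested on the reference, being -0.21 against the vehicle sample headed for 2 h and 0.40 against the one headed for 4 h. With the vehicle sample headed for the same time as sole reference, SGK1 changed by 2.12 at 2 h and 2.52 at 4 h of Dex. For CpdA those changes were 0.87 and 0.40. Which Dex time showed the larger rise therefore depended on the reference. A return of SGK1 to its level without ligand at 4 h of CpdA cannot be decided, since each time has 1 vehicle sample.

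The time course of SGK1 under each ligand does not take the vehicle level into its fold change, although the vehicle samples enter the shared estimate of the spread. By the column headers, SGK1 in vehicle measured 18.7 RPKM for 2 h and 12.3 RPKM for 4 h, 1 sample each. Whether a fall over time without ligand had a part in the changes below was not tested. From 2 h to 4 h SGK1 fell by 1.08 on the log2 scale (SE 0.156, adjusted p = 0.0043) with CpdA, to 0.473 of its 2 h level, and the 2 time points did not overlap. With Dex the change from 2 h to 4 h was -0.21 (95% interval -0.56 to 0.15, adjusted p = 0.42). The difference between these changes was 0.87 (SE 0.221), with an adjusted p of 0.051 where 6.6% of all genes were called; it passed the threshold in 7 of 20 alternatives, among them the fits without either vehicle sample (adjusted p = 0.0018 for each).

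The DNA before SGK1's annotated starts was read because GR binds a palindromic response element, written here as the hexamer AGAACA, 3 bases of any kind and the reverse complement TGTTCT. The 2000 bases before each annotated start of a coding transcript were searched in GRCh37; the motif reads the same on both strands, so a match on one is a match on the other. SGK1 held a match with 2 mismatches among the motif's 12 fixed positions, 40 bases before the start at 134497129 and 1165 to 1167 bases before 3 further starts of its 7. NEDD4L held 2 matches with 2 mismatches, 195 and 1881 bases before its start at 55816565. The 3 matches are shown on the strand of their gene with the 15 motif positions in capitals and 20 bases on each side, none of it within an annotated exon of the gene.
SGK1, chr6:134497142-134497196, minus strand: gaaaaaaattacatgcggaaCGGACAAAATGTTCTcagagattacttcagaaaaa
NEDD4L, chr18:55816343-55816397, plus strand: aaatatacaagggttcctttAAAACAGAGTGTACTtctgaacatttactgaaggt
NEDD4L, chr18:55814657-55814711, plus strand: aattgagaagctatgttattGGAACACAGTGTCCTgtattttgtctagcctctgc

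Counted from 1 at the motif's 5′ end, with the motif's base first, the SGK1 match differs by A1C and A3G, so its right hexamer TGTTCT is complete. The nearer NEDD4L match differs by G2A and T13A and the farther by A1G and T13C. Such matches are not rare, since 14.1% of 19797 genes hold one with at most 2 mismatches before some start (9.87% of 55881 windows), and 1.1% of genes hold one with at most 1. NEDD4L has 22 such windows and SGK1 has 7, against 1 to 5 for the other genes of the 7, and a gene with more windows has more places to match. FOXO1, FOXO3, FOXO4, NDRG1 and SGK3 held none closer than 3 mismatches. These are matches of letters, and GR binding was not measured in the files used here.

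SGK3 is the family member recruited to endosomal membranes and lies on chromosome 8 (chr8:67624969-67774257, plus strand). It measured 1.73 and 2.00 RPKM in vehicle, 1.67 and 1.52 at 2 h of Dex, 1.07 and 1.81 at 4 h of Dex, 1.76 and 1.77 at 2 h of CpdA, and 2.43 and 2.30 at 4 h of CpdA. The CpdA 4 h samples were the highest 2 of the 10, and Dex 4 h replicate 1 was the lowest. No comparison with vehicle was called, with log2 fold changes of -0.21 (SE 0.193) and -0.39 (SE 0.193) for Dex at 2 h and 4 h and of -0.07 and 0.33 for CpdA. Without Dex 4 h replicate 2 the 4 h Dex change was -0.75 (adjusted p = 0.0018), and without replicate 1 it was -0.04. The 4 h CpdA change was called without Dex 4 h replicate 1 (adjusted p = 0.031) or replicate 2 (0.033).

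SGK3 overlaps a readthrough gene, C8orf44-SGK3 (chr8:67579831-67772707), that is listed on its own in the files, so reads may have been split between them. The readthrough gene measured 0.206 to 0.746 RPKM, and it was low where SGK3 was high within the vehicle and within the Dex 4 h group. Adding its RPKM to that of SGK3, an alternative chosen after seeing the data, gave 2.44 and 2.36 RPKM in vehicle, 1.68 and 2.01 at 4 h of Dex and 3.14 and 3.05 at 4 h of CpdA. On that sum the Dex 4 h samples no longer overlapped with vehicle, with a log2 fold change of -0.37 (adjusted p = 0.018) for Dex at 4 h and of 0.36 (adjusted p = 0.028) for CpdA at 4 h.

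SGK1 made up 91.6% and 86.0% of the summed SGK1 and SGK3 RPKM in vehicle, 97.5% to 98.5% in the 4 Dex samples, 95.4% and 94.9% at 2 h of CpdA, and 87.5% and 87.1% at 4 h of CpdA. SGK2, the remaining member of the family, did not pass the filter, with at most 0.0981 RPKM in any sample.

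**Figure D2:**
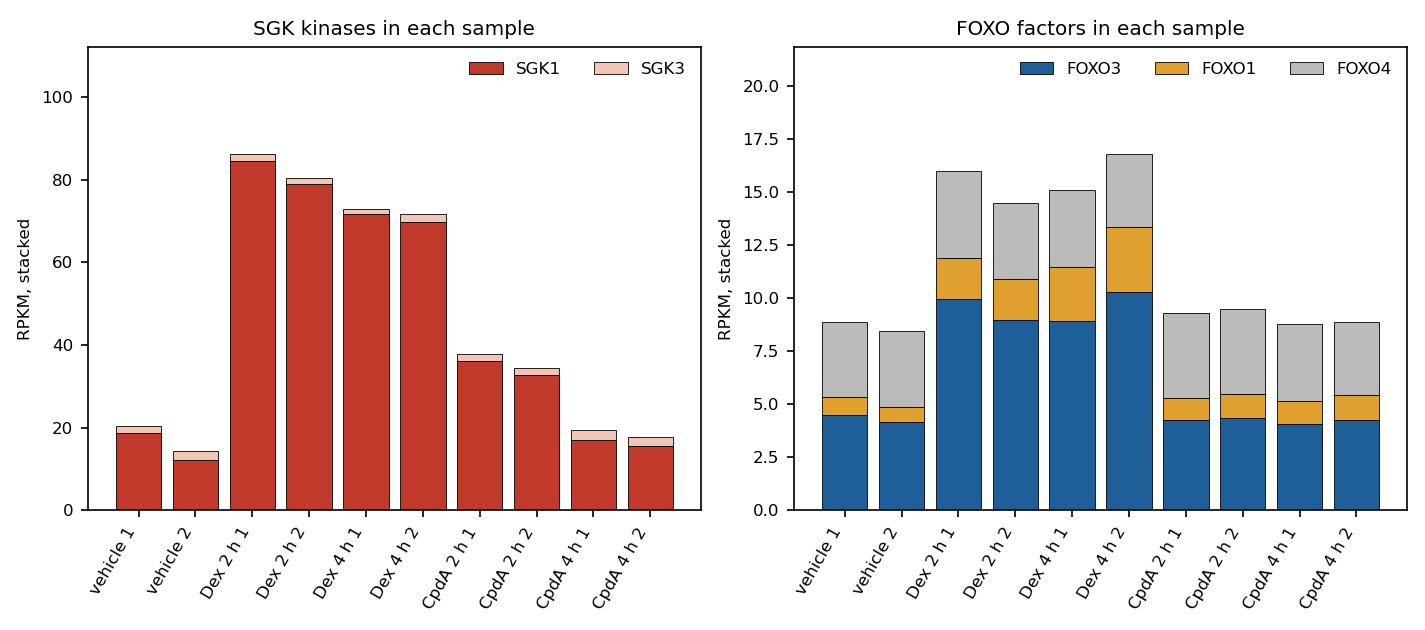
Stacked RPKM (vertical axes, linear from 0) of SGK1 and SGK3 (left) and of FOXO3, FOXO1 and FOXO4 (right) in each of the 10 samples, the last digit being the replicate. SGK1 makes up 86.0% or more of the SGK bars in every sample, and the FOXO bars reach 14.5 to 16.8 RPKM with Dex and 8.44 to 9.51 RPKM elsewhere.

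NEDD4L, the ubiquitin ligase that SGK1 restrains, lies on chromosome 18 (chr18:55711458-56068772, plus strand). It measured 23.6 and 21.8 RPKM in vehicle, 14.7 and 15.7 at 2 h of Dex, and 10.4 and 11.5 at 4 h of Dex. With CpdA it measured 19.6 and 20.3 RPKM at 2 h and 19.1 and 19.2 at 4 h. All 8 treated samples lay below both vehicle samples, and the 4 Dex samples below the 4 CpdA samples.

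Dex lowered NEDD4L by a log2 fold change of -0.58 (SE 0.063, 0.671-fold, adjusted p = 0.00029) at 2 h and of -1.05 (SE 0.063, 0.484-fold, adjusted p = 2.7e-06) at 4 h, and both calls held in all 20 alternatives. The further fall from 2 h to 4 h of Dex, -0.47 on the log2 scale (adjusted p = 0.0017), was also called in all 20; in that comparison 13.6% of all genes were called. With CpdA the log2 fold changes were -0.19 (adjusted p = 0.13) at 2 h and -0.24 (SE 0.063, 0.845-fold, adjusted p = 0.025) at 4 h. The latter call was lost in 5 alternatives, those without vehicle replicate 1 (adjusted p = 0.13), CpdA 4 h replicate 1 (0.13) or CpdA 4 h replicate 2 (0.11), with median scaling (0.058) and with no filter (0.056).

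NDRG1, a protein that SGK1 phosphorylates and whose phosphorylation is used to read SGK1 activity, lies on chromosome 8 (chr8:134249418-134314265, minus strand). It measured 142 and 105 RPKM in vehicle, 169 and 170.5 at 2 h of Dex, 145 and 148 at 4 h of Dex, 157 and 156 at 2 h of CpdA, and 134 and 133 at 4 h of CpdA. The treated replicates were close to each other in each group, while the vehicle samples, which the column headers named for 2 h and 4 h, differed. Whether they differed by time or as replicates cannot be told apart. Both Dex groups and CpdA at 2 h stood above both vehicle samples, and CpdA at 4 h lay between them.

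NDRG1 rose at 2 h of Dex by a log2 fold change of 0.48 (SE 0.109, 1.39-fold, adjusted p = 0.022), a call lost in 5 of 20 alternatives and among them without Dex 2 h replicate 1 (adjusted p = 0.12) or replicate 2 (0.11). The other comparisons with vehicle were not called, at 0.27 (adjusted p = 0.10) for Dex at 4 h and 0.36 (adjusted p = 0.090) and 0.13 (adjusted p = 0.43) for CpdA at 2 h and 4 h. Without vehicle replicate 1 these 3 changes were 0.49, 0.58 and 0.35, and without vehicle replicate 2 they were 0.05, 0.15 and -0.08. Against only the vehicle sample headed for the same time, NDRG1 changed by 0.26 and 0.49 at 2 h and 4 h of Dex. With CpdA those changes were 0.15 and 0.35. With median scaling the 4 h Dex change was 0.34 (adjusted p = 0.045). From 2 h to 4 h NDRG1 changed by -0.21 (adjusted p = 0.24) with Dex and by -0.23 (adjusted p = 0.21) with CpdA, and both were called without vehicle replicate 1 (0.0066 and 0.0052) or replicate 2 (0.0067 and 0.0052).

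**Figure D3:**
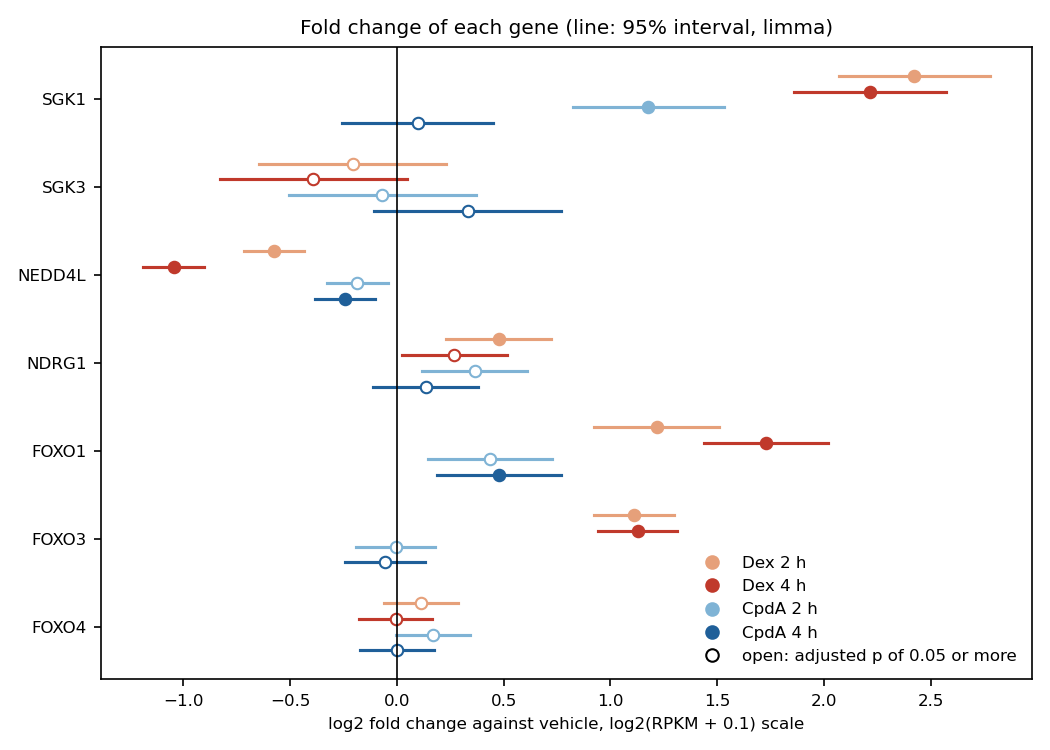
Log2 fold change against vehicle (horizontal axis, log2(RPKM + 0.1) scale) of the 7 genes for each ligand and time; lines are 95% intervals from limma, filled points an adjusted p-value under 0.05. SGK1, FOXO1 and FOXO3 lie to the right and NEDD4L to the left for both times of Dex, with filled points, and the 4 intervals of FOXO4 and the 4 of SGK3 reach 0.

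FOXO1 on chromosome 13 (chr13:41129804-41240778, minus strand) was the least abundant of the 3 FOXO transcripts. It measured 0.853 and 0.705 RPKM in vehicle, 1.94 and 1.93 at 2 h of Dex, and 2.53 and 3.10 at 4 h of Dex. With CpdA it measured 1.03 and 1.14 RPKM at 2 h and 1.08 and 1.16 at 4 h. All 8 treated samples stood above both vehicle samples, and the Dex samples above the CpdA samples.

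The log2 fold change of FOXO1 was 1.22 (SE 0.128, 2.32-fold, adjusted p = 0.00024) at 2 h of Dex and 1.73 (SE 0.128, 3.31-fold, adjusted p = 1.1e-05) at 4 h, and 122 genes rose more at 4 h. Both calls held in the 19 alternatives in which FOXO1 was kept. The 4 h Dex level exceeded the 2 h level by 0.51 (SE 0.128, adjusted p = 0.031), a call lost in 9 of 19 alternatives, with the highest adjusted p of 0.14 without Dex 2 h replicate 1. Without Dex 2 h replicate 2, Dex 4 h replicate 2 or any of the 4 CpdA samples that adjusted p lay between 0.052 and 0.14. With CpdA the changes were 0.44 (SE 0.128, adjusted p = 0.087) at 2 h and 0.48 (SE 0.128, 1.39-fold, adjusted p = 0.029) at 4 h. The 4 h call was lost in 8 of 19 alternatives, among them without vehicle replicate 2 (adjusted p = 0.13), either CpdA 4 h replicate (0.096 and 0.16) or either Dex 2 h replicate (0.051 for each). The 2 h change was called without Dex 4 h replicate 1 (adjusted p = 0.045) or replicate 2 (0.046).

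FOXO3, on chromosome 6 (chr6:108881038-109005977, plus strand), measured 4.48 and 4.18 RPKM in vehicle, 9.97 and 8.97 at 2 h of Dex, and 8.92 and 10.3 at 4 h of Dex. With CpdA it measured 4.26 and 4.36 RPKM at 2 h and 4.06 and 4.26 at 4 h. The Dex samples stood far above all others, and the CpdA samples overlapped with vehicle. Its log2 fold change was 1.11 (SE 0.082, 2.16-fold, adjusted p = 2.4e-05) and 1.13 (SE 0.082, 2.18-fold, adjusted p = 9.9e-06) at 2 h and 4 h of Dex, called in all 20 alternatives. For CpdA it was -0.01 (95% interval -0.19 to 0.18) and -0.06 (95% interval -0.24 to 0.13), values whose sign turned under median scaling and quantile normalization. FOXO3B, a paralog on chromosome 17 with which FOXO3 may share reads, measured 0.363 to 0.608 RPKM. With its RPKM added, the log2 fold changes of FOXO3 for Dex were 1.05 and 1.07.

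FOXO4, on the X chromosome (chrX:70315701-70323382, plus strand), measured 3.54 and 3.56 RPKM in vehicle, 4.10 and 3.61 at 2 h of Dex, and 3.65 and 3.42 at 4 h of Dex. With CpdA it measured 4.00 and 4.01 RPKM at 2 h and 3.64 and 3.45 at 4 h. Both 2 h groups stood above vehicle and both 4 h groups overlapped with it, and no comparison was called. The 95% interval of its log2 fold change was -0.06 to 0.29 at 2 h and -0.18 to 0.17 at 4 h of Dex.

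Summed over FOXO1, FOXO3 and FOXO4, the level was 8.87 and 8.44 RPKM in vehicle and 14.5 to 16.8 RPKM in the 4 Dex samples, while the 4 CpdA samples lay between 8.78 and 9.51 RPKM. FOXO4's part of that sum was 39.9% and 42.2% in vehicle and 20.4% to 25.6% with Dex. FOXO1's part was 9.62% and 8.34% in vehicle, 12.1% and 13.3% at 2 h of Dex and 16.8% and 18.4% at 4 h. FOXO6, a further FOXO factor, passed the filter at 0.776 to 1.23 RPKM over the samples and is not part of the sum.

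The ligands were also set against each other at the same time, with their doses differing. At 2 h, 4 of the 7 transcripts differed where 13.7% of all genes were called: SGK1 was higher with Dex by a log2 difference of 1.24 (SE 0.156, adjusted p = 0.00061), FOXO1 by 0.78 (SE 0.128, adjusted p = 0.0032) and FOXO3 by 1.12 (SE 0.082, adjusted p = 1.9e-05), and NEDD4L was lower with a difference of -0.39 (SE 0.063, adjusted p = 0.0027). At 4 h, 5 of 7 differed where 33.4% of all genes were called. SGK1 differed by 2.12, FOXO1 by 1.25 and FOXO3 by 1.18, with adjusted p-values of 9.1e-06, 7.9e-05 and 6.2e-06, and NEDD4L by -0.80 (adjusted p = 1.3e-05). SGK3 was lower with Dex than with CpdA by a difference of -0.72 (SE 0.193, adjusted p = 0.018), a call lost without CpdA 4 h replicate 1 (0.093) or replicate 2 (0.069). NDRG1 was not called at either time, with 95% intervals of -0.13 to 0.36 at 2 h and -0.11 to 0.38 at 4 h, although at 4 h its difference of 0.13 was called without either vehicle sample (adjusted p = 0.019 for each). For FOXO4 the intervals were -0.23 to 0.12 and -0.18 to 0.17.

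NEDD4L was the transcript whose difference between the ligands changed from 2 h to 4 h, by -0.41 (SE 0.088, adjusted p = 0.026). It fell on from 2 h to 4 h of Dex and stood at -0.06 (95% interval -0.20 to 0.09) between the times of CpdA. The call was lost in 8 of 20 alternatives, among them without any 1 of the 2 h samples of either ligand or of the CpdA 4 h samples, with adjusted p-values of 0.059 to 0.12. Between the times of CpdA, where 12.4% of all genes were called, SGK1 was the 1 transcript of 7 called.

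The wider pathway was followed in 4 lists of known genes. The list of kinases and phosphatases that feed SGK (PI3K subunits, PDPK1, the mTORC2 complex and the phosphatases against them) held 21 tested genes. With Dex 1 rose and 0 fell at 2 h (4.76% of the list, beside 10.3% of all genes) and 2 rose and 3 fell at 4 h (23.8% beside 27.4%), with a median log2 fold change of -0.01 at 4 h beside -0.05 for all genes. With CpdA 0 rose and 3 fell at 2 h (14.3% beside 6.18%), and 0 rose and 4 fell at 4 h (19.0% beside 20.5%), with medians of -0.03 and -0.13 beside -0.02 and -0.04 for all genes. PHLPP1, a phosphatase of AKT-type kinases, measured 1.92 to 2.37 RPKM in vehicle, 3.11 to 3.89 at 4 h of Dex and 1.39 to 1.61 at 4 h of CpdA. It rose by 0.68 (SE 0.133, adjusted p = 0.0048) with Dex and changed by -0.48 (adjusted p = 0.032) with CpdA, the latter lost without CpdA 4 h replicate 1 (adjusted p = 0.20) and 6 other samples. PIK3R3, a PI3K regulatory subunit, rose by 0.67 (adjusted p = 0.0062) at 4 h of Dex. INPP4B, a phosphoinositide phosphatase, stood at 14.8 to 15.0 RPKM in vehicle and 9.32 to 10.6 at 4 h of Dex, a change of -0.58 (SE 0.063, adjusted p = 0.00014).

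The catalytic subunit PIK3CB changed by -0.35 (adjusted p = 0.0040) at 4 h of Dex and by -0.26 (adjusted p = 0.022) at 4 h of CpdA, the latter lost without CpdA 4 h replicate 2 (adjusted p = 0.12), CpdA 4 h replicate 1 (0.10) or vehicle replicate 1 (0.089). PIK3IP1, an inhibitor of PI3K, changed by -0.39 (adjusted p = 0.038) at 4 h of CpdA, which was lost without CpdA 4 h replicate 1 (0.17) and 6 other samples. SGK2, PRR5 and DEPTOR did not pass the filter.

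Of 14 tested genes for SGK substrates and sodium transport, 4 rose and 1 fell at 2 h of Dex, where 4.49% of all genes rose and 5.82% fell, and 5 rose and 1 fell at 4 h, where 9.26% of all genes rose and 18.2% fell. With CpdA 0 were called at 2 h, where 1.89% of all genes rose and 4.29% fell, and 2 rose and 1 fell at 4 h, where 6.76% of all genes rose and 13.8% fell. Their medians were 0.02 and -0.04 for Dex and 0.07 and -0.01 for CpdA. SCNN1A, the alpha subunit of the epithelial sodium channel, measured 4.38 to 4.98 RPKM in vehicle, 7.01 to 7.34 at 2 h of Dex and 10.1 to 11.8 at 4 h, a rise of 1.21 (SE 0.095, 2.31-fold, adjusted p = 1.7e-05) at 4 h. The beta and gamma subunits SCNN1B and SCNN1G did not pass the filter.

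NEDD4, the closest relative of NEDD4L, moved the other way from it with Dex: it measured 8.25 to 8.45 RPKM in vehicle, 11.2 to 11.7 at 2 h and 16.1 to 20.4 at 4 h, a rise of 1.11 (SE 0.093, 2.15-fold, adjusted p = 2.6e-05) at 4 h. At 4 h of CpdA its log2 fold change was 0.11 (adjusted p = 0.46). SLC9A3R2, a scaffold of the sodium-proton exchanger, changed by -0.20 (adjusted p = 0.0080) with Dex and -0.25 (adjusted p = 0.0041) with CpdA at 4 h. OXSR1, a kinase of sodium-chloride transport, rose with Dex from 47.1 to 48.5 RPKM in vehicle to 65.3 to 69.4 RPKM at 4 h, by 0.28 (adjusted p = 0.0018) at 2 h and 0.49 (adjusted p = 2.3e-05) at 4 h. At 4 h of CpdA OXSR1 changed by 0.18 (adjusted p = 0.013) and WNK4, a kinase of the same pathway, by 0.49 (adjusted p = 0.037), and these calls were lost without CpdA 4 h replicate 2 (0.092 and 0.24), with OXSR1 lost without 2 other samples and WNK4 without 5.

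Of 18 tested regulators and partners of FOXO factors, 1 rose and 1 fell at 2 h of Dex (11.1% of the list, beside 10.3% of all genes) and 4 rose and 2 fell at 4 h (33.3% beside 27.4%). With CpdA 1 rose and 0 fell at 2 h (5.56% beside 6.18%), and 3 rose and 1 fell at 4 h (22.2% beside 20.5%). Their median log2 fold change lay between 0.03 and 0.06 in all 4 comparisons, beside -0.02 to -0.05 for all genes. YWHAQ, of the adaptor family that holds phosphorylated FOXO proteins in the cytoplasm, rose by 0.54 (SE 0.038, adjusted p = 8.2e-06) at 4 h of Dex, from 162 to 165 RPKM in vehicle to 233 to 241 RPKM. SFN, of the same family, rose by 0.57 (SE 0.043, adjusted p = 7.1e-05) at 4 h of CpdA, from 166 RPKM in both vehicle samples to 241 and 252 RPKM. For Dex its change was 0.14 (adjusted p = 0.044), lost without Dex 4 h replicate 1 (0.14) and 8 other samples. YWHAG, a further member, changed by -0.17 (adjusted p = 0.023) with Dex and 0.27 (adjusted p = 0.0034) with CpdA at 4 h, the former lost without vehicle replicate 2 (0.090) and 2 other samples.

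SKP2, the ubiquitin ligase subunit that targets FOXO1, measured 5.76 to 7.31 RPKM in vehicle, 3.93 to 4.40 at 4 h of Dex and 4.10 to 4.29 at 4 h of CpdA. Its log2 fold changes were -0.63 (SE 0.104, adjusted p = 0.0019) and -0.62 (SE 0.104, adjusted p = 0.0033), both called in every alternative. The nuclear exporter XPO1 rose by 0.24 (adjusted p = 0.041) at 4 h of Dex, which was lost without vehicle replicate 2 (0.19) and 8 other samples, and the kinase CSNK1A1 by 0.12 (adjusted p = 0.045) at 4 h of CpdA, lost without CpdA 4 h replicate 1 (0.22) and 7 other samples.

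Among 30 tested genes known as FOXO targets, 10 rose and 4 fell at 2 h of Dex, where 4.49% of all genes rose and 5.82% fell, and 11 rose and 5 fell at 4 h, where 9.26% rose and 18.2% fell. With CpdA 8 rose and 2 fell at 2 h, where 1.89% of all genes rose and 4.29% fell, and 7 rose and 3 fell at 4 h, where 6.76% rose and 13.8% fell. PDK4 and PPARGC1A passed the filter through the Dex samples alone. Without them the counts over 28 genes were 8 up and 4 down at 2 h of Dex, 9 up and 5 down at 4 h of Dex, 7 up and 2 down at 2 h of CpdA and 6 up and 3 down at 4 h of CpdA. The median of the 30 was 0.17 and 0.10 for Dex and 0.14 and -0.02 for CpdA, beside medians of -0.02, -0.05, -0.02 and -0.04 for all genes. Many of these genes also answer to other regulators, and GR itself is known to act on some of them. CCND2, FASLG, SESN3, PCK1, G6PC and TRIM63 did not pass the filter.

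PDK4, a mitochondrial kinase that restrains glucose oxidation, had the largest difference between Dex and vehicle of the list: it measured 0.140 to 0.158 RPKM in vehicle, 69.4 to 70.4 at 2 h and 37.5 to 39.1 at 4 h. With CpdA at 4 h it stood at 0.268 to 0.333 RPKM. Its log2 fold changes for Dex, 8.13 at 2 h and 7.27 at 4 h, are given as a description, since the level in those samples admitted the gene to the test. IRS2, the insulin receptor substrate, measured 8.78 to 9.05 RPKM in vehicle and 35.1 to 42.8 at 4 h of Dex, a rise of 2.11 (adjusted p = 1.7e-07), and its change at 4 h of CpdA was -0.14 (adjusted p = 0.26). TXNIP, an inhibitor of glucose uptake and thioredoxin, rose by 1.80 (adjusted p = 1.4e-08) with Dex and 0.48 (adjusted p = 0.00014) with CpdA at 4 h, from 112 to 113 RPKM in vehicle to 381 to 403 and 155 to 159 RPKM.

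The cell cycle inhibitor CDKN1A rose with both ligands, from 110 to 134 RPKM in vehicle to 318 to 321 at 4 h of Dex (1.39, adjusted p = 1.7e-06) and 196 to 205 at 4 h of CpdA (0.72, adjusted p = 0.00035). GABARAPL1, a gene of autophagy, rose by 0.50 (adjusted p = 0.00027) and 0.70 (adjusted p = 0.00011) at the same times. CCND1, a cyclin that FOXO factors are known to repress, fell with both: it measured 294 to 327 RPKM in vehicle, 155 to 156 at 4 h of Dex and 198 to 199 at 4 h of CpdA, with changes of -0.99 (adjusted p = 9.1e-07) and -0.64 (adjusted p = 7.4e-05).

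TNFSF10 (TRAIL), a death ligand, fell with Dex from 25.6 to 26.6 RPKM in vehicle to 10.7 to 12.8 at 2 h and 5.41 to 6.56 at 4 h, a change of -2.11 (SE 0.096, adjusted p = 4.5e-07) at 4 h. Its CpdA 4 h samples, at 23.4 and 23.5 RPKM, gave -0.15 (adjusted p = 0.30). BBC3, an inducer of apoptosis, changed by -0.53 (adjusted p = 0.038) at 4 h of Dex, which was lost without vehicle replicate 1 (0.22) and 7 other samples. C10orf10 went opposite ways with the ligands at 2 h, at 2.68 to 4.05 RPKM in vehicle, 7.64 to 7.88 with Dex (1.21, adjusted p = 0.00083) and 1.40 to 1.51 with CpdA (-1.13, adjusted p = 0.0034), and at 4 h of CpdA the change was -1.16 (adjusted p = 0.00098). KLF2, a transcription factor, fell by 0.86 on the log2 scale (adjusted p = 0.0021) at 4 h of CpdA.

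**Figure D4:**
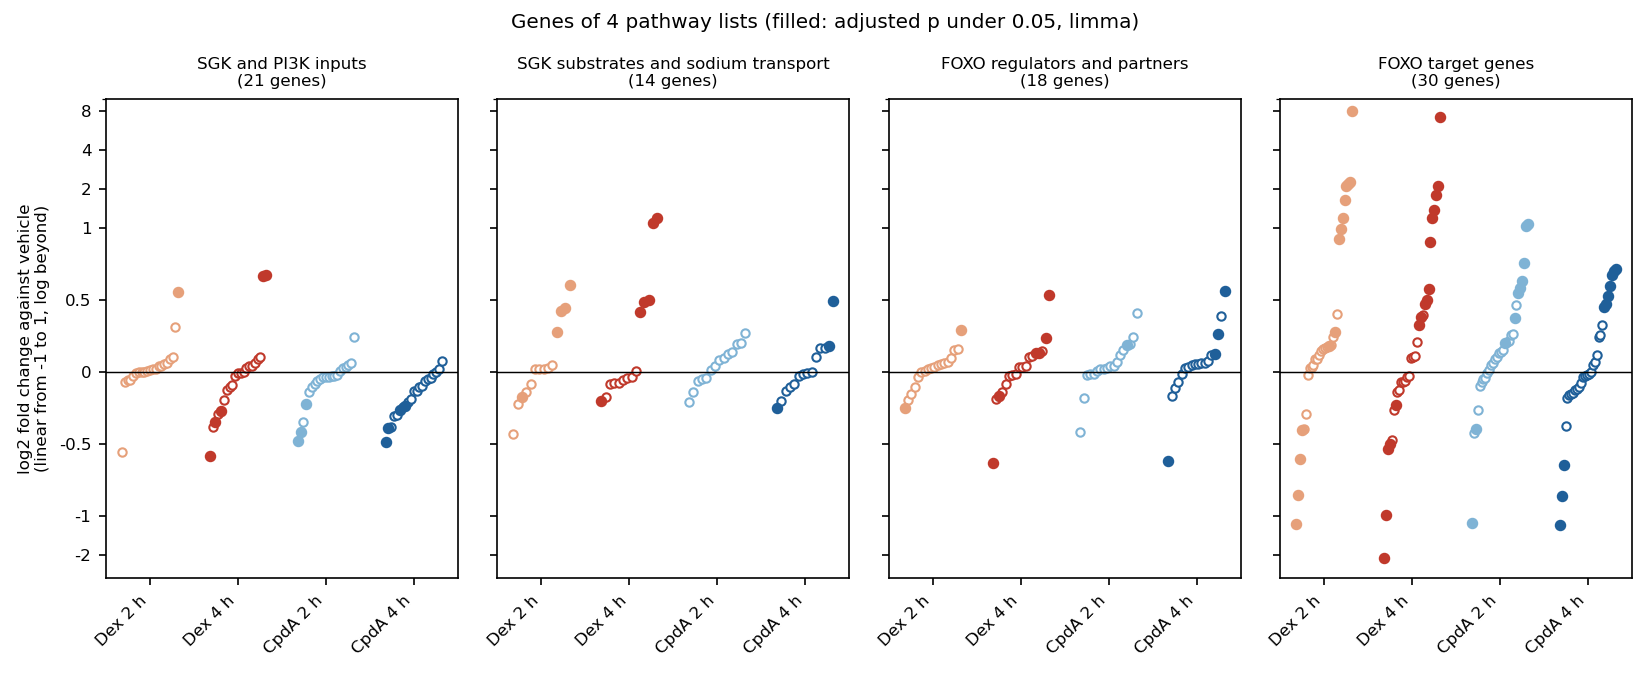
Log2 fold change against vehicle (vertical axis, linear from -1 to 1 and logarithmic beyond) of every tested gene of 4 pathway lists, sorted within each ligand and time; filled points have an adjusted p-value under 0.05 (limma). The list of FOXO targets spreads widest, from -2.11 for TNFSF10 to 7.27 for PDK4 at 4 h of Dex, and the inputs and regulators lie within 1 of 0.

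The transcripts whose pattern over the 10 samples was most like that of each gene were ranked by Pearson's r on log2(RPKM + 0.1); the points share libraries and groups, and r is given as a description. For SGK1 these were MCL1, a survival protein of the BCL2 family (r = 0.987), ERRFI1, a feedback inhibitor of EGFR (r = 0.983), and CEBPD, a transcription factor (r = 0.980). Their log2 fold changes were 0.82, 2.16 and 2.08 at 2 h of Dex and 0.46, 0.65 and 1.10 at 2 h of CpdA, against 2.42 and 1.18 for SGK1. For NEDD4L they were TRAF1, SGK223 and VASN (r = 0.994, 0.991 and 0.989). TRAF1, an adaptor of TNF receptors, stood at -2.38 at 4 h of Dex and -0.57 at 4 h of CpdA on the log2 scale, against -1.05 and -0.24 for NEDD4L.

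For FOXO3 the nearest transcripts were SEC14L1, FOXN2 and FGD4 (r = 0.997, 0.996 and 0.995). SEC14L1 lay close to FOXO3 in size, with log2 fold changes of 1.06 and 1.08 at 2 h and 4 h of Dex, whereas those of FGD4 were 3.93 and 4.43. FGD4 lay under the filter level outside Dex, with geometric means of 0.310 RPKM in vehicle and 0.244 and 0.218 at 2 h and 4 h of CpdA. With Dex they were 6.16 and 8.73 RPKM, the level that admitted it to the ranking, so its values are a description only. For FOXO1 they were ACSL3, C16orf52 and PGM2L1 (r = 0.994, 0.988 and 0.986), with log2 fold changes of 0.44, 0.68 and 0.96 at 4 h of Dex. For the remaining genes the values of r were lower for NDRG1 (KLF17, ZNF395 and GADD45A, 0.941 to 0.923) and FOXO4 (MMAB, WFDC3 and ETFB, 0.948 to 0.912), and for SGK3 they were 0.979 with ARCN1 and 0.976 with SLC7A1. KLF17 lay near the filter level, with geometric means of 0.351 RPKM in vehicle and 0.534 at 2 h of Dex.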

How the data were processed

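RNA-seq values of 10 samples were used; the other 12 samples of the series, from chromatin immunoprecipitation, were not used here. The authors sequenced 50-base single-end reads, aligned them with TopHat 2.0.13 and deposited RPKM values per gene symbol from Partek Genomics Suite 6.6. How transcripts were combined into symbols, and the build used for this alignment, are not given in the sources used here. Read totals are unknown, so no counting error is given; relative depth came from the RPKM step of 1 read.

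Groups followed the sample labels. RPKM was transformed to log2(RPKM + 0.1), genes with at least 0.5 RPKM in at least 2 samples were kept (12713), and 1 limma model (limma 3.58.1, R 4.3.3; eBayes with trend) was fitted over all 5 groups. The script was tested on simulated data. Replicate numbers were not taken as pairs. For this, each sample's deviation from its group mean on the log2 scale was correlated between same-numbered samples. These correlations of deviations were -0.0568 to 0.1975 over 10 pairs of groups.

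The genes and lists were chosen with earlier results of these data known. Named genes were the 7 genes; from each list, for each ligand at 4 h, up to 3 called genes with the largest rise and up to 3 with the largest fall; and the 3 transcripts most like each of the 7. A few genes that this rule names are not reported here. Other genes are named for checks, for reads shared with one of the 7, or as not passing the filter. Motifs were searched in GRCh37 with GENCODE annotation lifted to that build. Alternatives were other pseudocounts, filters, scalings and variance models, only the samples of a comparison, a replicate block, each sample left out, and summed RPKM of overlapping genes. Tables and figures used Python 3.11.15, numpy 2.4.6, pandas 2.3.3 and matplotlib 3.10.9.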

Additional observations from a re-analysis of the deposited data

Results flagged for a closer look

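The difference between Dex and CpdA in NEDD4L transcript changed from 2 h to 4 h by -0.41 on the log2 scale (limma interaction term, adjusted p = 0.026), which marked it as an effect that differs between the ligands. NEDD4L was the 1 transcript of the 7 for which this interaction was called, where 6.6% of all genes were called. The 2 h values were 14.7 and 15.7 RPKM with Dex and 19.6 and 20.3 RPKM with CpdA, and the 4 h values 10.4 and 11.5 RPKM and 19.1 and 19.2 RPKM. The call was lost in 8 of 20 alternatives, 6 of them with 1 of the 10 samples left out. The corresponding change of SGK1, 0.87 (adjusted p = 0.051, limma), was called in 7 of 20.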

How the results depend on the processing

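The number of the 7 transcripts called stayed within 1.5 times the main count under all 20 alternatives for Dex against vehicle and for Dex against CpdA. For CpdA at 4 h against vehicle (2 called) it was 1 with a pseudocount of 1, with at least 1 RPKM in every sample, with median scaling and with only the samples compared, 0 with no filter, and 0 to 3 with 1 sample left out. For CpdA at 2 h (1 called) it was 1 to 2 with 1 sample left out. Between the Dex times (2 called) it was 1 with no filter, with the stricter filter and with only the samples compared, and 1 to 3 with 1 sample left out. Between the CpdA times (1 called) it was 3 with only the samples compared, 2 with summed RPKM of overlapping genes and 1 to 2 with 1 sample left out. For the change of the ligand difference over time (1 called) it was 2 with a pseudocount of 1, the stricter filter, median scaling, the replicate block, only the samples compared or summed RPKM, 0 with no filter or no variance trend, and 0 to 2 with 1 sample left out. FOXO1, at 0.853 and 0.705 RPKM in vehicle, was left out by the stricter filter of at least 1 RPKM in every sample. Its calls at 4 h of CpdA and between the Dex times were therefore not counted under that filter. The cause of the other shifts was not tested.

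Replicate numbers were not taken as pairs. The replicate block left 5, 4, 1 and 2 transcripts called against vehicle (Dex 2 h and 4 h, CpdA 2 h and 4 h), and it moved the SGK1 change of the ligand difference to an adjusted p of 0.023 (limma).

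Sign changes occurred in uncalled values. With quantile normalization and median scaling FOXO4 became 0.091 and 0.064 at 4 h of Dex and 0.088 and 0.065 at 4 h of CpdA, and FOXO3 became 0.045 and 0.028 at 2 h and 0.026 and 0.0085 at 4 h of CpdA. With quantile normalization FOXO4 became 0.0031 for Dex against CpdA at 4 h and NDRG1 -0.023 for the change of the ligand difference. With 1 sample left out the log2 ranges that crossed 0 were, for FOXO4, -0.050 to 0.039 (Dex 4 h), -0.038 to 0.037 (CpdA 4 h), -0.15 to 0.034 (Dex against CpdA, 2 h), -0.050 to 0.039 (4 h) and -0.040 to 0.14 (change of the ligand difference). For FOXO3 they were -0.055 to 0.043 (CpdA 2 h), -0.084 to 0.12 (between Dex times) and -0.033 to 0.17 (change of the ligand difference). For SGK3 they were -0.17 to 0.030 (CpdA 2 h) and -0.54 to 0.17 (between Dex times), for SGK1 and NDRG1 at 4 h of CpdA -0.21 to 0.40 and -0.083 to 0.35, and for FOXO1 between CpdA times -0.023 to 0.11.

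Over all genes, only the samples compared gave 1775 calls in place of 3487 at 4 h of Dex, 480 in place of 786 at 2 h of CpdA, 696 in place of 1725 between the Dex times and 3500 in place of 1577 between the CpdA times. With 1 sample left out the count was 216 to 1446 at 2 h of CpdA, 261 to 2500 between the CpdA times, 592 to 3440 between the Dex times and 293 to 2132 (839 with all samples) for the change of the ligand difference, so the shares of all genes given beside the 7 transcripts move with them. It fell as low as 766 in place of 1311 at 2 h of Dex, 1190 in place of 2609 at 4 h of CpdA, 959 in place of 1743 for Dex against CpdA at 2 h and 2759 in place of 4241 at 4 h. Of 36 calls of named pathway genes, 22 held in every alternative and 11 were lost without some sample. The 22 include PDK4 at 4 h of Dex, which is a description only, since its level with Dex admitted it to the test. With 2 samples a group, 1 sample can decide a call.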
